A study of Homo sapiens with 18 samples.

Results

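Cells of the established human liver cancer line HepG2 were compared under thyroid hormone between pools that carried an added thyroid hormone receptor and a pool that carried the empty plasmid. The comparison took the 9 arrays on T3 (triiodothyronine, the active thyroid hormone) of 18 in all: 3 of a pool with ectopic TRα1 (6 clones), 3 of a pool with ectopic TRβ1 (12 clones) and 3 of the empty plasmid pool (11 clones), called the control pool below. Every group had come through the same G418 co-selection and received 100 nM T3 over 6 h while kept in hormone-stripped serum. The matching 9 arrays of the same pools on ethanol vehicle for 6 h gave the pool difference without added T3. The 3 arrays of a group were independent biological repeats of 1 pool of clones, so the receptor, the amount of it and the clones that carried it cannot be told apart. Values are log2 expression per array feature, and 20546 of 32321 features had a gene symbol. The receptor pools were weighted equally, a difference is the mean of the TRα1 and TRβ1 pools minus the control pool, and arrays were paired by replicate number.

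Thyroid hormone receptors are nuclear receptors that sit on DNA response elements, usually together with a retinoid X receptor. Without hormone they hold corepressors at many of these genes, and T3 exchanges these for coactivators and raises transcription. In the liver they are known for genes of gluconeogenesis, fatty acid oxidation, cholesterol and bile acid handling, and hormone deiodination. HepG2 cells have receptor genes of their own, so the control pool on T3 is a pool with hormone and without added receptor, not one without receptor.

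The core motif of a classical response element reads AGGTCA, and a pair of cores spaced by 4 bases, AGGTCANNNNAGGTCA, forms the direct repeat best known for these receptors. Promoter sequences from RefSeq (GRCh38.p14), from 250 bases before to 50 bases after the annotated start, were searched for both on both strands. PTAFR and ENG are shown because their pool difference depended on T3, and SERPINB9 because it was among the 15 genes with the largest higher values and held 2 core motifs. Each line runs 5′ to 3′ on the gene's own strand, here the minus strand of chr1:28193807-28194106, chr9:127854609-127854908 and chr6:2903260-2903559, and capitals mark AGGTCA or its reverse complement.
PTAFR: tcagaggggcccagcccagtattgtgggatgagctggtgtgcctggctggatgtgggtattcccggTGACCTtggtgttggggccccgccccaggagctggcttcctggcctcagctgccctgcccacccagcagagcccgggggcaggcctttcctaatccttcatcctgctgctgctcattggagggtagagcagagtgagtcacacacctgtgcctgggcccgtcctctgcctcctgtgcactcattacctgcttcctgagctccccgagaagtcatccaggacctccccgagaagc
ENG: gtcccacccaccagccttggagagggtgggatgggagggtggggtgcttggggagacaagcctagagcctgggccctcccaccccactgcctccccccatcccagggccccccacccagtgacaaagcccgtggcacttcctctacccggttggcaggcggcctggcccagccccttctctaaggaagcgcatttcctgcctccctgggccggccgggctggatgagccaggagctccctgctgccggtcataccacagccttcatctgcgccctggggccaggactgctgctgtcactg
SERPINB9: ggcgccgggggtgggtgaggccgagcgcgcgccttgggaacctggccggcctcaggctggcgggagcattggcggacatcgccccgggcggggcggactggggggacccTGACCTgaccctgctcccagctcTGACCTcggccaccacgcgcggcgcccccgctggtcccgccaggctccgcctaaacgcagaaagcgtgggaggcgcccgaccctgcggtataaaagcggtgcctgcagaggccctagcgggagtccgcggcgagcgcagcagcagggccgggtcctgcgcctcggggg
PTAFR held 1 core motif, SERPINB9 held 2, both on the opposite strand, and ENG had none in this window. A promoter was matched for 203 of the 274 genes that were higher in the receptor pools on T3, and 29 of them (14.3%) held the core motif, beside 12 of 152 (7.89%) for the lower genes and 1577 of 14230 (11.1%) over all genes tested. The direct repeat occurred in 1 promoter of all and in 0 of either group. A match of these letters is a description and not a bound site.

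The 9 arrays on T3 had medians between 5.32 and 5.49. The largest component of variation, 51.4% of the variance, followed the replicate number: the 3 arrays numbered 1 scored between 32.8 and 37.3 and the others between -19.0 and -14.3. Once the replicate means were removed, the leading component (32.2%) ran from the control arrays, -23.7 to -9.91, over the TRβ1 arrays, -0.81 to 8.98, to the TRα1 arrays, 10.4 to 14.8, and control array 2 lay farthest out. All 10 hepatocyte markers, among them ALB, TF, APOB and AFP, read between 10.0 and 12.9 on the 9 arrays, and 1 of them differed, TTR. Endothelial markers read 3.85 to 4.96, stellate cell markers 3.72 to 6.50 and leukocyte markers 2.36 to 6.03, and 0 of these 11 differed. The mean of the 4 leukocyte markers ran from 3.811 to 4.18 on the receptor arrays and from 3.79 to 3.809 on the control arrays. Every receptor array thus lay above every control array, by a narrow margin between dim features. LYZ, the single call in a longer list of 14 leukocyte markers, was lower at -0.30. The part of this mean in the results was not tested. Of 3 cholangiocyte markers, KRT19 differed, as given with the progenitor genes below. In bulk RNA, fewer cells of a kind and less RNA per cell cannot be told apart.

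THRA, the gene of TRα (feature 8007008), read 7.96, 8.22 and 7.71 on the TRα1 arrays, 7.01, 6.85 and 7.17 on the TRβ1 arrays and 7.08, 6.77 and 7.18 on the control arrays. Every TRα1 array lay above every other array, and the TRβ1 and control arrays overlapped. The TRα1 pool exceeded control by 0.95 ± 0.13 (SE, n = 3 arrays per group; limma adjusted p = 8.9e-04), while the TRβ1 and control means were both 7.01 (SD 0.16 and 0.21). THRB, the gene of TRβ (feature 8085797), read 7.39, 7.48 and 7.40 on the TRβ1 arrays, 6.93, 7.13 and 7.50 on the TRα1 arrays and 6.90, 7.12 and 7.20 on the control arrays. The 3 TRβ1 values lay above those of control, and the difference of 0.35 ± 0.11 did not pass (adjusted p = 0.22). It is unknown which stretches of the plasmid transcripts these features detect, and neither level can stand for the amount of introduced receptor.

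On T3, 294 features were higher and 187 lower in the mean of the receptor pools than in the control pool. The serine protease inhibitor SPINK1 was 10.96-fold higher, a difference of 3.45 ± 0.31 (SE, 6 receptor arrays against 3 control arrays), and the matrix proteoglycan VCAN 3.94-fold higher. The stem and progenitor cell glycoprotein PROM1 was 3.37-fold lower and the RNA-binding protein BICC1 3.02-fold lower. In limma 481 of 20546 features (2.34%) had an adjusted p under 0.05, of which 294 (1.43%) were higher and 187 (0.91%) lower. With each pool set against control by itself, 249 of the 294 passed in TRα1, 104 in TRβ1 and 86 in both. Of the 187, 135 passed in TRα1, 57 in TRβ1 and 36 in both. Over all features 2.83% passed in TRα1 and 0.871% in TRβ1. The median size of these differences was 0.44, and 26 higher and 6 lower features reached 1 on the log2 scale. Values of the 6 receptor arrays and the 3 control arrays did not overlap for 165 of the 294 and 50 of the 187, beside 3.15% of all features tested. The calls came from these same arrays, so a larger share among them was built in. The count was 64 without the replicate number in the model, 242, 88 and 68 without the arrays numbered 1, 2 and 3, 162 and 196 without control array 2 or 3, and 309 without TRβ1 array 2. With each of the 9 arrays left out in turn 128 features stayed past the threshold, 100 higher and 28 lower, and 38 did so under all 13 settings that left out an array, a replicate number or the block.

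The vehicle arrays are other arrays of the same pools. The T3 and vehicle calls came from 1 fit with a shared variance per feature, so they are not independent tests. On vehicle 330 features (1.61%) differed, 229 higher (1.11%) and 101 lower (0.492%). Of the 294 features higher on T3, 155 were also called higher on vehicle, which is 52.7% of the T3 calls and 67.7% of the vehicle calls. Of the 187 lower on T3, 64 were also called lower on vehicle, 34.2% and 63.4% of the respective lists. The sign was the same for 276 of the 294 and 181 of the 187, and the share over all features was not taken. The median difference of the features called higher on T3 was 0.48 on T3 and 0.36 on vehicle, and that of the lower ones -0.40 and -0.29. The 229 called higher on vehicle had medians of 0.50 on vehicle and 0.43 on T3, and the 101 lower ones -0.39 and -0.36. In each case the larger median was on the treatment whose calls had chosen the features. The vehicle count moved to 45 without the block and to 176, 128 and 148 without control vehicle array 1, 2 or 3, and to 217 without TRβ1 vehicle array 2.

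**Figure D1:**
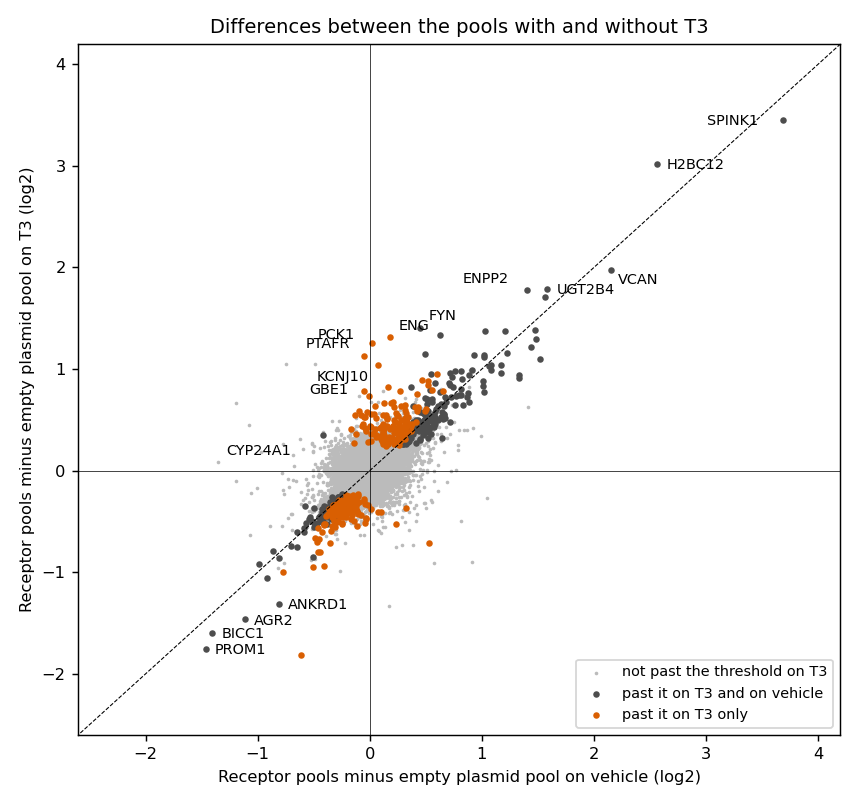
Difference between the receptor pools and the empty plasmid pool on T3 (vertical axis, log2) against the same difference on vehicle (horizontal axis, log2), 1 point per feature. The dashed line marks equal differences, and colours mark features past the threshold on T3, with or without vehicle. PROM1, at -1.75 on T3, and SPINK1, at 3.45, lie near that line, while PTAFR, ENG, KCNJ10 and PCK1 lie above 1 on T3 and near 0 on vehicle.

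Among the genes higher on T3, 3 that encode secreted proteins are given first. SPINK1 (feature 8114964) read 10.02, 7.23 and 7.35 on the TRα1 arrays, 9.67, 7.02 and 6.47 on the TRβ1 arrays and 5.25, 4.12 and 4.14 on the control arrays. Each receptor array lay above each control array, and the array numbered 1 read highest in all 3 pools. The adjusted p was 1.6e-05 in limma, and 0.25 without the replicate number in the model. VCAN (feature 8106743) read 7.08, 7.85 and 7.66 on TRα1, 6.38, 7.06 and 6.57 on TRβ1 and 4.75, 5.27 and 5.34 on control arrays, a difference of 1.98 ± 0.13 (adjusted p = 1.2e-06). ENPP2, the secreted enzyme autotaxin that makes lysophosphatidic acid (feature 8152522), read 8.67, 8.63 and 8.83 on TRα1, 7.61, 7.57 and 7.64 on TRβ1 and 6.16, 6.21 and 6.78 on control arrays. Its TRα1, TRβ1 and control arrays formed 3 separate steps, and its difference was 1.78 ± 0.08 (adjusted p = 3.0e-08). On vehicle the differences of SPINK1, VCAN and ENPP2 were 3.68, 2.15 and 1.41, all called.

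The other genes named for large higher values included enzymes, signalling proteins and histones. UGT2B4, a glucuronosyltransferase that conjugates bile acids and steroids, read 10.42, 10.56 and 10.62 on TRα1, 10.19, 9.81 and 10.16 on TRβ1 and 8.79, 8.49 and 8.23 on control arrays, a difference of 1.79 ± 0.13 (adjusted p = 1.6e-06). The groups did not overlap, and since UGT2B genes share much of their sequence the assignment to this member is uncertain. The sulfotransferase SULT1C2 differed by 1.21 ± 0.10. CHN1, a GTPase-activating protein for Rac, read 7.71, 7.79 and 7.78 on TRα1, 6.75, 6.57 and 6.58 on TRβ1 and 5.37, 5.36 and 5.74 on control arrays, again in 3 separate steps, with a difference of 1.71 ± 0.13. The pseudokinase TRIB2 differed by 1.37 ± 0.13, the sugar phosphate exchanger SLC37A2 by 1.34 ± 0.14, the microtubule-associated SLAIN1 by 1.16 ± 0.13 and SERPINB9, an inhibitor of granzyme B, by 1.15 ± 0.09. The histone H2BC12 read 7.61, 7.73 and 6.59 on TRα1, 7.47, 6.90 and 6.05 on TRβ1 and 4.40, 3.51 and 4.19 on control arrays, a difference of 3.02 ± 0.28. H2AC12 differed by 1.30 ± 0.18, and for both histones near-identical copies make the gene uncertain. Each gene of this paragraph was also called on vehicle, at 2.57 for H2BC12, 1.58 for UGT2B4, 1.56 for CHN1, 1.48 for H2AC12, 1.44 for SULT1C2, 1.22 for SLAIN1, 1.03 for TRIB2, 0.63 for SLC37A2 and 0.50 for SERPINB9.

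Of the genes named for large lower values, the 5 with the lowest are given first. PROM1 (feature 8099476) read 5.22, 5.59 and 5.00 on the TRα1 arrays, 6.06, 5.78 and 5.99 on the TRβ1 arrays and 7.20, 7.41 and 7.47 on the control arrays. Every receptor array lay below every control array, and the TRα1 arrays were lowest. The difference was -1.75 ± 0.14 (adjusted p = 4.6e-06). BICC1 read 4.32, 4.34 and 3.75 on TRα1, 4.51, 4.57 and 4.24 on TRβ1 and 5.37, 6.32 and 5.97 on control arrays, a difference of -1.60 ± 0.18. AGR2, a protein disulfide isomerase of secretory cells, differed by -1.46 ± 0.16 (adjusted p = 1.1e-04, and 0.068 without the replicate number), and PCOLCE2, an enhancer of procollagen processing, by -1.05 ± 0.09 (0.19 without it). ANKRD1, a textbook target of the transcription regulator YAP (feature 7934979), read 7.36, 7.16 and 7.32 on TRα1, 7.19, 7.78 and 7.44 on TRβ1 and 8.52, 8.88 and 8.67 on control arrays. The groups did not overlap, and the difference was -1.31 ± 0.12. On vehicle these 5 genes differed by -1.46, -1.40, -1.11, -0.91 and -0.81 in the order named, all called.

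The remaining lower genes named by size, apart from CYP7A1 below, differed by -0.95 to -0.71. The prostaglandin reductase PTGR1 read 6.73, 6.73 and 6.72 on TRα1, 6.77, 6.68 and 6.46 on TRβ1 and 7.54, 7.64 and 7.63 on control arrays, 0.92 lower with separate groups. The Wnt inhibitor DKK1 differed by -0.85 ± 0.09, the guanine deaminase GDA by -0.86 ± 0.12, the pyrimidine-degrading enzyme DPYD by -0.75 ± 0.10 and the keratin-associated KRTAP3-1 by -0.75 ± 0.09, and each was also called on vehicle. IL18, an inflammatory cytokine, differed by -0.95 ± 0.18, HCAR3, a hydroxycarboxylic acid receptor with a near-identical neighbour gene, by -0.80 ± 0.16, and LOC285097 by -0.71 ± 0.17, and none of these 3 was called on vehicle. DOCK9, an exchange factor for Cdc42, differed by -0.79 ± 0.15. Leaving out single arrays ended the calls of IL18 (control array 2 or 3, adjusted p up to 0.095), DOCK9 (the same, up to 0.10), HCAR3 (control array 1 or 3, up to 0.12) and LOC285097 (7 of 9 arrays, up to 0.32). DDR1, a collagen receptor kinase picked out after its values were seen, had the lowest called value of all at -1.82 (adjusted p = 0.045), a call that 8 of 9 arrays left out in turn each ended (up to 0.24), while another feature of DDR1 stood at -0.01 and did not pass.

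**Figure D2:**
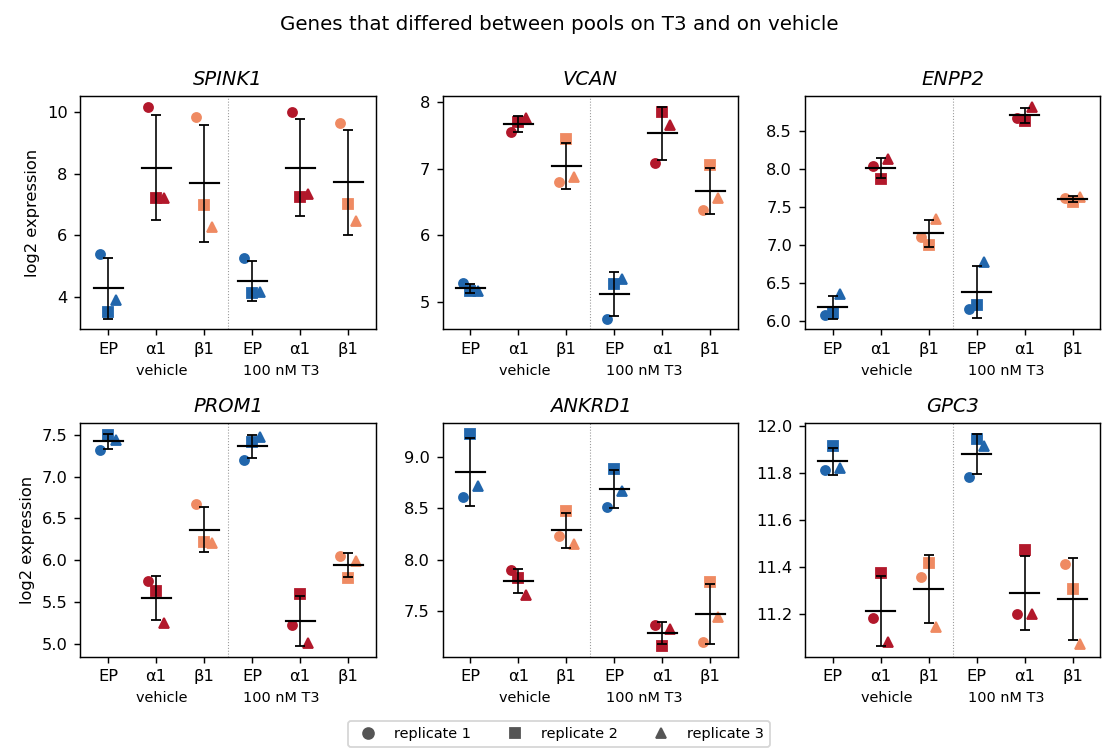
Log2 expression of 6 genes in the 18 arrays, by pool (EP, empty plasmid; α1, TRα1; β1, TRβ1) on vehicle and on 100 nM T3, with 1 symbol per replicate number, the mean as a bar and the SD as whiskers (n = 3). For SPINK1, VCAN and ENPP2 all receptor arrays on T3 lie above the control arrays, and for PROM1, ANKRD1 and GPC3 all lie below.

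For a few genes the pool difference on T3 departed from that on vehicle. The test of this departure, T3 minus vehicle, was passed by 6 of 20546 features (0.0292%), all more positive on T3: PTAFR, ENG, KCNJ10, FYN, CYP24A1 and ZNF717. PTAFR, the receptor for platelet-activating factor (feature 7914184), read 6.90, 7.08 and 6.88 on TRα1, 6.14, 6.52 and 6.43 on TRβ1 and 5.40, 5.62 and 5.56 on control arrays on T3. On vehicle the same pools read 5.26, 5.78 and 5.76, then 5.09, 5.63 and 5.39, then 5.48, 5.41 and 5.73. The groups were separate on T3 and overlapped on vehicle, with differences of 1.13 ± 0.10 and -0.05 ± 0.10, and the T3 minus vehicle difference was 1.19 ± 0.14 (adjusted p = 0.0081). ENG, the TGF-β coreceptor endoglin (feature 8164269), read 8.01, 8.0 and 7.37 on TRα1, 6.84, 7.12 and 6.94 on TRβ1 and 6.00, 6.08 and 6.13 on control arrays on T3. It differed by 1.31 ± 0.11 on T3 and 0.18 ± 0.11 on vehicle, which are 1.13 ± 0.16 apart (adjusted p = 0.018). KCNJ10, an inward rectifier potassium channel, read 6.03, 6.25 and 5.98 on TRα1, 5.65, 5.47 and 5.47 on TRβ1 and 4.65, 4.95 and 4.70 on control arrays, without overlap, and its T3 minus vehicle difference was 0.97 ± 0.15 (adjusted p = 0.030).

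FYN, a Src family kinase (feature 8128956), read 9.45, 9.61 and 9.26 on TRα1, 8.32, 8.44 and 7.95 on TRβ1 and 7.45, 7.40 and 7.44 on control arrays on T3, and differed by 1.41 ± 0.09 on T3 and 0.45 ± 0.09 on vehicle, both called. Its pools stood in 3 separate steps on T3, and the T3 minus vehicle difference was 0.96 ± 0.13 (adjusted p = 0.0093). CYP24A1, which breaks down active vitamin D, read 6.08, 5.56 and 5.28 on TRα1, 5.12, 5.34 and 4.54 on TRβ1 and 7.05, 6.52 and 6.46 on control arrays on vehicle. On T3 it read 7.91, 7.51 and 7.06, then 7.22, 7.04 and 6.23, then 7.42, 6.92 and 6.90. It was lower in the receptor pools on vehicle, at -1.36 ± 0.13 (adjusted p = 2.8e-05), and on T3 the arrays overlapped, with a difference of 0.09 ± 0.13 that did not pass. ZNF717, a zinc finger gene, was called in opposite directions, 0.35 ± 0.07 on T3 and -0.42 ± 0.07 on vehicle, and the T3 call was lost without control array 1 or 2 (adjusted p up to 0.071). PCK1, the rate-limiting enzyme of gluconeogenesis, read 6.31, 6.71 and 6.08 on TRα1, 7.37, 7.47 and 6.23 on TRβ1 and 5.41, 5.78 and 5.12 on control arrays. Its groups were separate on T3, at 1.26 ± 0.16 (adjusted p = 4.6e-04), beside 0.02 ± 0.16 on vehicle, and the T3 minus vehicle difference of 1.24 ± 0.23 did not pass (adjusted p = 0.14). The same held for the glycogen branching enzyme GBE1, at 0.79 ± 0.11 on T3, -0.06 ± 0.11 on vehicle and 0.84 ± 0.16 between them (adjusted p = 0.14).

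The T3 minus vehicle count was 0 without the block, where 305 features had an unadjusted p under 0.05 against 873 with it. It was also 0 without any 1 replicate number or control vehicle array 3, 3 without control T3 array 2, and 7, 6 higher and 1 lower, with each array centred on its median.

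**Figure D3:**
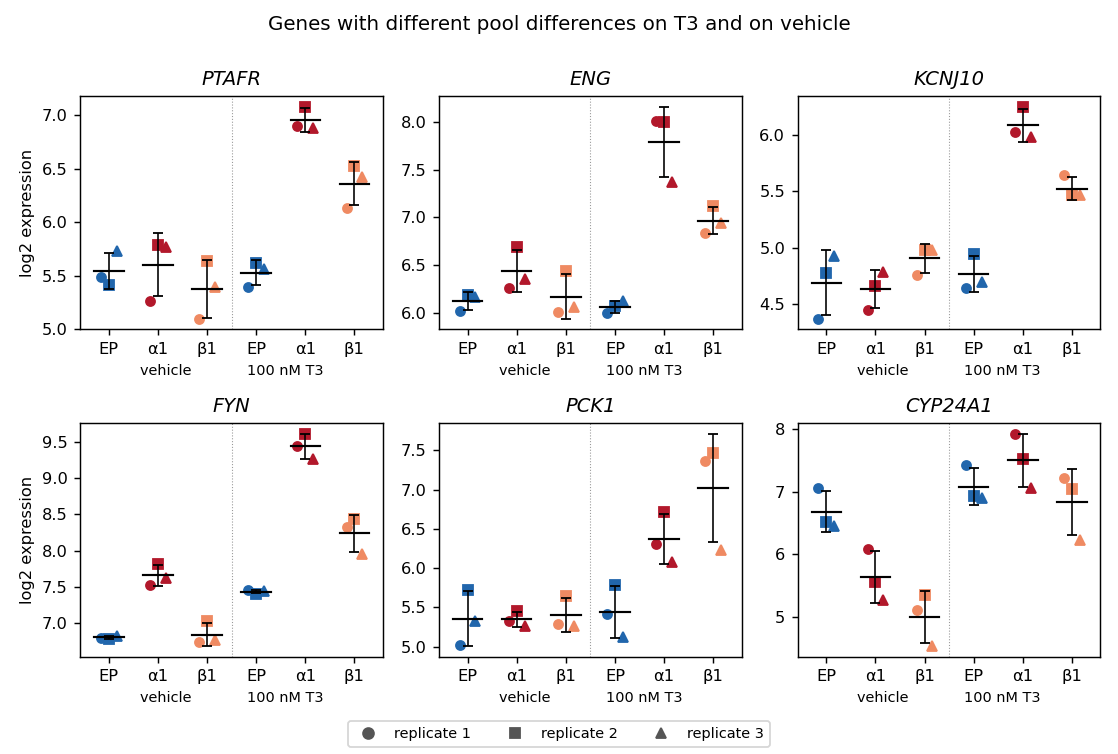
Log2 expression of PTAFR, ENG, KCNJ10, FYN, PCK1 and CYP24A1 in the 18 arrays, by pool (EP, empty plasmid; α1, TRα1; β1, TRβ1) on vehicle and on 100 nM T3, with 1 symbol per replicate number, the mean as a bar and the SD as whiskers (n = 3). For the first 5 genes the receptor arrays lie above the control arrays on T3, and for CYP24A1 they lie below control on vehicle and among it on T3.

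Gene lists of hormone action, liver function, signalling and cell identity, 46 in all, held 852 distinct genes among those tested. On T3, 80 of them (9.39%) differed between receptor and control pools, beside 2.34% of all features. The lists had been chosen with results of these data known, so this share is a description. In 9 lists no member differed: cell cycle (0 of 30), nuclear respiratory chain subunits (0 of 24), epithelial and mesenchymal markers (0 of 19), liver transcription factors (0 of 18), circadian clock (0 of 17), cancer testis antigens (0 of 15), and endothelial, stellate cell and neuronal markers. With 2.34% of all features called, a count of 0 in lists of these sizes lies near that share and is no result about them. The same share stands beside every list below. Members with adjusted p above the threshold may still differ.

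**Figure D4:**
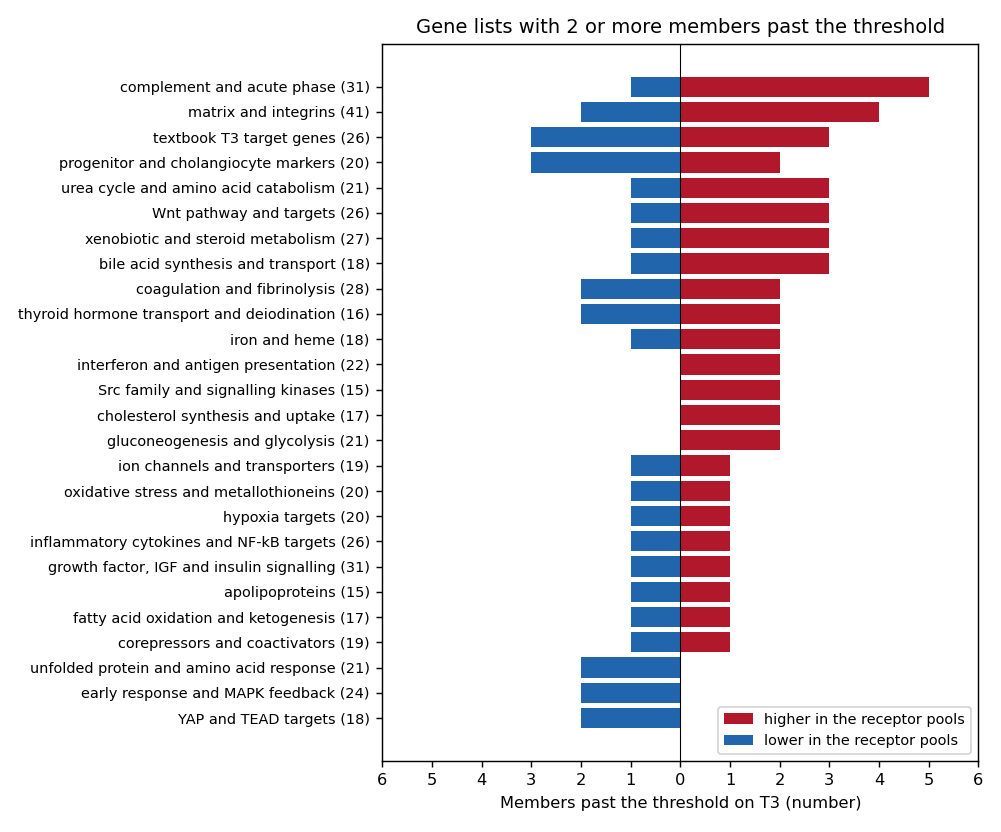
Number of members past the threshold on T3 in each of the 26 gene lists with 2 or more of them, to the right for those higher and to the left for those lower in the receptor pools, with the number of members tested in brackets. Complement and acute phase genes had 5 higher and 1 lower of 31, and 3 lists had lower members only.

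Among receptors and coregulators, 1 of 5 TR and RXR genes passed, THRA at 0.47 ± 0.12 in the mean of both pools, a call that 7 of 9 arrays left out in turn each ended (adjusted p up to 0.36). Of 19 corepressors and coactivators, NRIP1, a ligand-dependent corepressor, was higher at 0.42 ± 0.07 (adjusted p = 0.0036) and MED1, the Mediator subunit that binds nuclear receptors, lower at -0.30 ± 0.06 (adjusted p = 0.021, lost with 5 of 9 arrays left out and then up to 0.19). The median of the list was -0.01, beside 0.01 over all features. Of 28 other nuclear receptors NR2F6 was the single call (3.6%, beside 2.34% of all features), higher at 0.39 ± 0.08, and was lost without control array 2 (adjusted p = 0.14). NRIP1 lost its call without any 1 replicate number (0.063 to 0.19) and without the number in the model (0.25).

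Of 16 genes of hormone transport and deiodination, 2 were higher and 2 lower, with a median of -0.03. SERPINA7, thyroxine-binding globulin, read 10.27, 9.58 and 9.67 on TRα1, 10.35, 9.44 and 9.48 on TRβ1 and 9.85, 9.06 and 9.02 on control arrays, and was higher by 0.49 ± 0.06 (adjusted p = 5.5e-04) within every replicate number although the arrays overlapped across numbers. TTR, the other plasma carrier of thyroid hormone, read 10.38, 10.18 and 10.01 on TRα1, 11.01, 10.91 and 10.69 on TRβ1 and 11.07, 11.10 and 10.84 on control arrays. Its TRα1 arrays were the low ones, and the mean difference was -0.47 ± 0.07. The amino acid transporter SLC7A5 was higher by 0.26 ± 0.06 and DIO1, the deiodinase that activates T4 and a textbook T3-induced gene, lower by -0.33 ± 0.07. The call of SLC7A5 was lost without control array 2 or 3 (adjusted p up to 0.13) and that of DIO1 with 6 of 9 arrays left out (up to 0.15). SERPINA7 and TTR kept theirs with each single array left out and lost them without the replicate number in the model (adjusted p = 1.0 and 0.30).

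Of 26 textbook T3 target genes 6 differed (23.1%), 3 higher and 3 lower, with a median of 0.13. The higher ones were PCK1, SERPINA7 and CPT1A, the gatekeeper of mitochondrial fatty acid uptake. CPT1A read 7.56, 8.15 and 7.68 on TRα1, 7.54, 8.01 and 7.40 on TRβ1 and 6.76, 7.28 and 7.09 on control arrays, above control on every receptor array, with 0.68 ± 0.09 on T3 (adjusted p = 4.7e-04) and 0.20 ± 0.09 on vehicle, where it did not pass. The lower ones were DIO1, the glucose transporter SLC2A1 at -0.39 ± 0.07, and CYP7A1, the rate-limiting enzyme of bile acid synthesis. CYP7A1 read 3.50, 3.81 and 3.99 on TRα1, 4.70, 3.79 and 3.43 on TRβ1 and 5.05, 4.96 and 4.59 on control arrays, where 1 TRβ1 array overlapped control, and differed by -0.99 ± 0.20 (adjusted p = 0.015). Leaving out control array 2 ended the call of CYP7A1 (adjusted p = 0.14) and leaving out control array 3 that of SLC2A1 (0.081). Without the replicate number in the model PCK1 alone of the 6 kept its call. On vehicle 1 of the 26 differed, SERPINA7, and 0 of the 26 passed the T3 minus vehicle test.

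In carbohydrate and lipid metabolism few members of each list differed. Of 21 gluconeogenic and glycolytic genes PCK1 and PFKL, the liver phosphofructokinase (0.35 ± 0.06), were higher, of 13 glycogen genes GBE1 was higher, and of 11 glucose transporters SLC2A1 was lower. Of 17 genes of fatty acid oxidation CPT1A was higher and ACADM, a medium-chain acyl-CoA dehydrogenase, lower at -0.35 ± 0.08. The fatty acid elongase ELOVL6 was the single call among 21 genes of fat synthesis (4.8%, beside 2.34% of all features), at 0.43 ± 0.08. In cholesterol synthesis the enzymes LSS and DHCR7 were higher, at 0.46 ± 0.10 and 0.36 ± 0.06, and on vehicle 3 of the same 17 genes were. Of 15 apolipoproteins APOA5, a regulator of plasma triglyceride, was higher at 0.71 ± 0.10 and APOM, a carrier in HDL, lower at -0.38 ± 0.08. Against control by itself TRα1 had 2 calls among these 15 and TRβ1 0, and TRβ1 minus TRα1 was 0.54 for APOM, which was called. With single arrays left out, PFKL lost its call without control array 2 (adjusted p = 0.078), ELOVL6 and APOM without control array 2 or 3 (up to 0.072 and 0.14), ACADM with 5 and LSS with 6 of 9 arrays (up to 0.17 and 0.20). Without the replicate number in the model every call of this paragraph on T3 was lost except that of PCK1. The adjusted p was then 0.34 for GBE1, 0.13 for CPT1A, 0.93 for DHCR7 and 0.9996 for APOA5.

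Bile acid genes included 4 calls among 18 members, with a median of 0.07. BAAT, which conjugates bile acids to amino acids, was higher by 0.72 ± 0.10 and was also called on vehicle at 0.86. SLC51B, a subunit of the basolateral bile acid exporter, was higher by 0.52 ± 0.08 (adjusted p = 0.0013) with a vehicle difference of -0.04 ± 0.08, and its T3 minus vehicle difference of 0.57 ± 0.11 did not pass (adjusted p = 0.15). The sterol exporter ABCG8 was higher by 0.42 ± 0.10, a call lost with 8 of 9 arrays left out (up to 0.22), and CYP7A1 was lower. Xenobiotic and steroid metabolism had 4 of 27, with UGT2B4, the steroid hydroxylase CYP3A5 (0.38 ± 0.09) and the P450 reductase POR (0.38 ± 0.09) higher and the dioxin receptor AHR lower (-0.43 ± 0.10). CYP3A5 and AHR lost the call with 7 of 9 arrays left out and POR with 8 (up to 0.18, 0.33 and 0.30). Without the replicate number in the model every call of this paragraph on T3 was lost except that of UGT2B4. The adjusted p was then 0.60 for BAAT and 0.96 for SLC51B.

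Amino acid, iron and vitamin genes held their calls in a few members each. HMOX1, the heme oxygenase of the stress response, read 8.81, 8.36 and 8.20 on TRα1, 8.44, 7.83 and 7.80 on TRβ1 and 7.77, 7.34 and 7.02 on control arrays. All 6 receptor values were above those of control, and the difference was 0.86 ± 0.07 (adjusted p = 3.7e-06, and 0.14 without the replicate number). With it, of 18 iron and heme genes, ALAS1, the first enzyme of heme synthesis, was higher by 0.25 ± 0.06 and UROD, a later one, lower at -0.33 ± 0.07. Of 21 genes of urea cycle and amino acid catabolism, the phospholyase ETNPPL (0.46 ± 0.10), the methionine adenosyltransferase MAT1A (0.35 ± 0.06) and glutamine synthetase GLUL (0.26 ± 0.06) were higher and CTH, which makes cysteine, was lower (-0.40 ± 0.10). A second feature of GLUL stood at 0.23 and did not pass. For ETNPPL the receptor pools were unequal, with TRβ1 minus TRα1 at -1.02, which was called. Of 15 genes of vitamin D and retinoid metabolism DHRS3, a retinaldehyde reductase, was higher at 0.38 ± 0.08. Single arrays ended the calls of MAT1A (control array 2, adjusted p = 0.078), ETNPPL (control array 2 or 3, up to 0.16) and DHRS3 (these or TRβ1 array 2, up to 0.11). Those of UROD, GLUL, CTH and ALAS1 were ended by 6, 7, 7 and 8 of 9 arrays (up to 0.18, 0.16, 0.33 and 0.24).

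Plasma proteins made by hepatocytes contributed 6 of 31 complement and acute phase genes, 5 higher and 1 lower, with a median of 0.10. Hemopexin (HPX), which binds free heme, was higher by 1.04 ± 0.16 and the complement protease C1S by 0.72 ± 0.08. The acute phase inhibitor SERPINA3 was higher by 0.64 ± 0.10 and the lectin pathway protease MASP1 by 0.54 ± 0.10. On vehicle 7 of the 31 genes were called, 5 higher and 2 lower. HPX, C1S and SERPINA3 were also called on vehicle, at 1.17, 0.49 and 0.61, whereas MASP1 stood at -0.07 ± 0.10 there, with a T3 minus vehicle difference of 0.62 ± 0.13 that did not pass (adjusted p = 0.42). These 4 kept the call with each single array left out and lost it without the replicate number in the model. The adjusted p was then 0.076 for MASP1, 0.26 for C1S, 0.31 for HPX and higher still for SERPINA3. MASP1 also lost its call without any 1 replicate number (0.073 to 0.11). Of 28 coagulation and fibrinolysis genes SERPINF2, the plasmin inhibitor, was higher by 0.50 ± 0.08 and SERPIND1, heparin cofactor II, by 0.26 ± 0.06, while the inhibitor TFPI was lower at -0.50 ± 0.10 and F13B, a subunit of factor XIII, at -0.94 ± 0.16. TFPI lost its call without control array 2 or 3 (up to 0.15), F13B without control array 3 (0.054) and SERPIND1 with 8 of 9 arrays (up to 0.18). On vehicle 3 of the 28 coagulation and fibrinolysis genes were called, all higher.

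Of 20 progenitor and cholangiocyte markers 5 differed (25.0%), with a median of -0.03. SPINK1 and the secreted phosphoprotein SPP1 (0.77 ± 0.15) were higher, and PROM1, GPC3 and KRT19 lower. GPC3, an oncofetal proteoglycan of liver cancer (feature 8175234), read 11.20, 11.47 and 11.20 on TRα1, 11.41, 11.31 and 11.07 on TRβ1 and 11.78, 11.95 and 11.91 on control arrays, with separate groups and a difference of -0.60 ± 0.08 (adjusted p = 4.3e-04). The cholangiocyte keratin KRT19 ranged from 9.02 to 10.27 over the 9 arrays and differed by -0.61 ± 0.15 (adjusted p = 0.044). The mean level of the 3 cholangiocyte markers ran from 5.93 to 6.21 on the receptor arrays and from 6.24 to 6.27 on the control arrays. KRT19 carried this, since KRT7 stood at -0.05 and CFTR at 0.04 and neither passed. The part of this mean in the other results was not tested. SPP1 lost its call without control array 2 or 3 (up to 0.12), and KRT19 with 8 of 9 arrays left out in turn (up to 0.24). On vehicle 4 of the 20 markers were called, 2 higher and 2 lower.

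In the lists of signalling pathways and matrix genes, between 1 and 6 members differed. Of 26 Wnt pathway genes WNT11, a ligand, was higher by 0.82 ± 0.09, the membrane inhibitor APCDD1 by 0.55 ± 0.09 and GLUL as above, while the inhibitor DKK1 was lower. Of 18 YAP and TEAD targets, ANKRD1 and the matricellular CCN2 (-0.49 ± 0.12) were lower, and the median was -0.02. Of 24 early response and MAPK feedback genes, SPRY4 and DUSP6, 2 inhibitors of ERK signalling, were lower at -0.42 ± 0.09 each. Of 41 matrix and integrin genes 4 were higher and 2 lower (14.6%), among them SPARC, a collagen-binding matricellular protein (1.03 ± 0.15), and the metalloprotease inhibitor TIMP3 (0.42 ± 0.08), with the integrin subunits ITGAV (-0.53 ± 0.07) and ITGA2 (-0.51 ± 0.10). The other feature of TIMP3 stood at 0.63 and did not pass. For TIMP3 as named, TRβ1 minus TRα1 was -0.55 and was called. ENG was the single call among 32 genes of the TGF-β and BMP axis (3.1%, beside 2.34% of all features). Without control array 2, TIMP3 lost its call (0.12), without control array 2 or 3 DUSP6 and ITGA2 (up to 0.14 and 0.12), without these or TRβ1 array 3 SPRY4 (up to 0.16), and CCN2 with 7 of 9 arrays (up to 0.34). Without the replicate number in the model, WNT11 and ITGAV were also lost (adjusted p = 0.0501 and 0.9996). On vehicle the Wnt list had 4 calls, 3 higher and 1 lower, and the matrix and integrin list 4, with 2 higher and 2 lower.

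Growth factor, kinase and immune lists each had 2 calls. Of 31 genes of growth factor and insulin signalling, IGFBP2 was higher by 0.88 ± 0.14 and IGFBP1, another binding protein of insulin-like growth factors, lower at -0.44 ± 0.09. FYN and the serum and glucocorticoid kinase SGK1 (0.51 ± 0.10) were higher among 15 signalling kinases. The interferon-induced GTPases MX2 and MX1 were higher by 0.67 ± 0.06 and 0.52 ± 0.09 of 22 interferon and antigen presentation genes, and on vehicle by 0.68 and 0.53. Of 26 inflammatory genes TNFRSF9, a costimulatory receptor, was higher by 0.59 ± 0.12 and IL18 lower. Without control array 1 or 3 IGFBP1 lost its call (adjusted p up to 0.12), and without control array 1 or 2 SGK1 and TNFRSF9 (up to 0.083 and 0.12). IGFBP2 kept its call with each single array left out and lost it without the replicate number in the model (0.25).

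The stress lists had 2 calls each. The hypoxia target NDRG1 was higher by 0.43 ± 0.09 while SLC2A1, in the same list of 20, was lower. Of 20 oxidative stress and metallothionein genes HMOX1 was higher and the cystine transporter SLC7A11 lower at -0.34 ± 0.08, and the median of the list was -0.12. For SLC7A11 the receptor pools were unequal, with TRβ1 minus TRα1 at 0.47, which was called. SLC7A11 and the lipoprotein receptor VLDLR (-0.51 ± 0.09) were the 2 lower genes of 21 in the unfolded protein and amino acid response. KCNJ10 was higher and the water and glycerol channel AQP3 lower (-0.55 ± 0.11) among 19 channels and transporters. VLDLR lost its call without control array 3 (0.062), AQP3 without any 1 of the control arrays (up to 0.088), and NDRG1 and SLC7A11 with 5 and 6 of 9 arrays (up to 0.17 and 0.31). Single members also passed among p53 targets (GADD45B, 0.41 ± 0.10), clustered histones (H2BC12) and leukocyte markers (LYZ, -0.30 ± 0.07), and GADD45B and LYZ each lost the call with 8 of 9 arrays left out (up to 0.23 and 0.30).

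Each receptor pool was then set against the same control arrays, which both comparisons share. The TRα1 pool differed in 582 features (2.83%), 373 higher and 209 lower, and the TRβ1 pool in 179 (0.871%), 108 higher and 71 lower. Of the 15 genes named as higher, the TRα1 difference ran from 0.93 for PCK1 to 3.69 for SPINK1 and the TRβ1 difference from 0.81 for FYN to 3.21 for SPINK1. Of the 15 lower ones, the TRα1 difference ran from -0.68 for KRTAP3-1 to -2.09 for PROM1 and the TRβ1 difference from -0.38 for DOCK9 to -1.55 for AGR2. The counts were 89 and 32 without the block. Leaving out TRα1 arrays gave 328 to 370 in TRα1 and leaving out TRβ1 arrays 80 to 91 in TRβ1, while control array 2 or 3 left out gave 252 and 308 in the former and 73 and 80 in the latter.

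**Figure D5:**
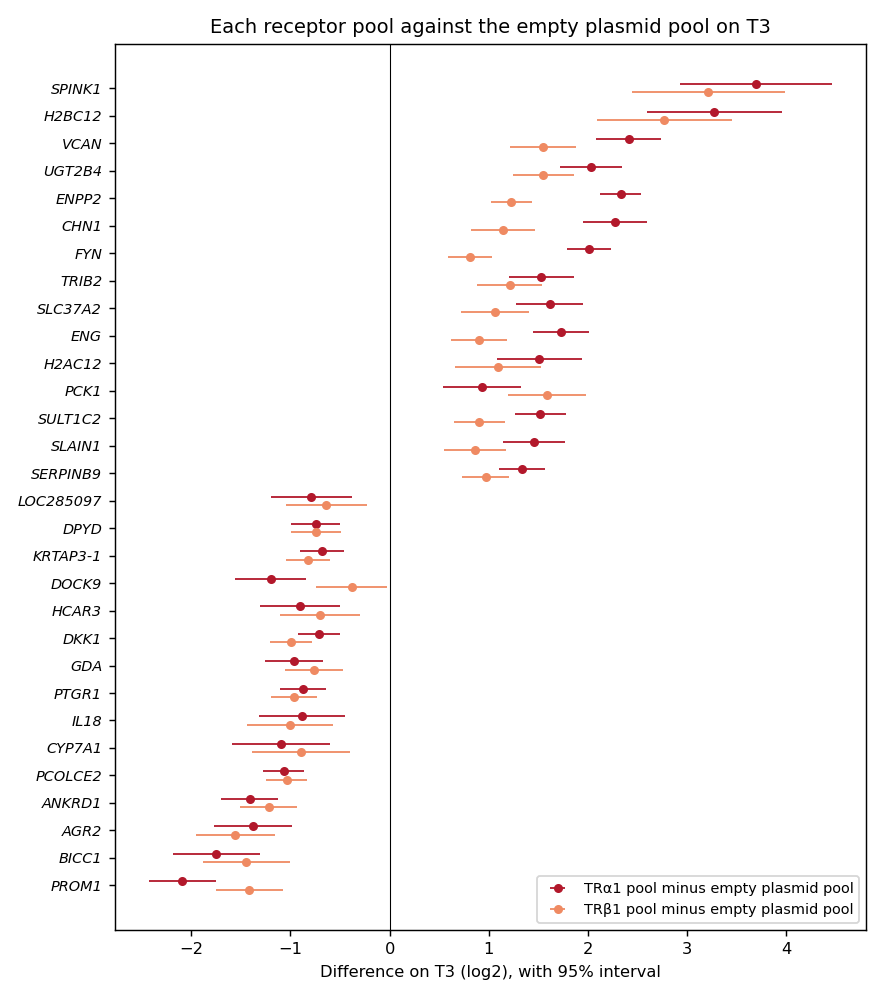
Difference of each receptor pool from the shared empty plasmid pool on T3 (log2) for the 15 higher and 15 lower genes named by size, with 95% intervals. SPINK1 lies near 3 or above in both pools, FYN at 2.01 in TRα1 and 0.81 in TRβ1, and PCK1 at 0.93 and 1.59.

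The direct test between the receptor pools on T3, which does not use the control arrays, was passed by 124 features (0.604%), 46 higher and 78 lower in TRβ1 than in TRα1. The tight junction protein CLDN6 read 9.43, 9.87 and 9.42 on TRα1, 7.81, 8.73 and 7.60 on TRβ1 and 8.16, 7.93 and 7.53 on control arrays. Its TRα1 arrays stood apart, the TRβ1 and control arrays overlapped, and TRβ1 was lower than TRα1 by -1.53 ± 0.20 (adjusted p = 0.0019). SLC2A2, the glucose transporter GLUT2, read 9.16, 9.46 and 9.70 on TRα1, 7.98, 8.26 and 8.46 on TRβ1 and 8.35, 9.04 and 9.08 on control arrays, with TRβ1 below TRα1 by -1.21 ± 0.13. Against control it was called higher in TRα1 (0.62) and lower in TRβ1 (-0.59), and the mean of both pools stood at 0.01 ± 0.11. SGK1 read 7.65, 7.32 and 7.41 on TRβ1, 6.66, 6.39 and 6.19 on TRα1 and 6.53, 6.28 and 6.47 on control arrays, 1.05 ± 0.11 higher in TRβ1, whose arrays stood apart.

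FYN (-1.20 ± 0.10), CHN1 (-1.13 ± 0.15), ENPP2 (-1.10 ± 0.10), VCAN (-0.86 ± 0.16), ENG (-0.82 ± 0.13), PTAFR (-0.59 ± 0.11) and KCNJ10 (-0.56 ± 0.12), all higher than control in both pools, were lower in TRβ1 than in TRα1. The transcription regulators CDCA7L (-1.31 ± 0.12) and NUPR1 (-1.21 ± 0.18) were lower in TRβ1 as well. The matrix protein MATN3 (1.13 ± 0.15), the phospholipid flippase ATP10A (1.09 ± 0.11), the receptor family member PAQR9 (1.02 ± 0.10), the sodium channel SCN1A (0.87 ± 0.13) and SPART, or spartin (0.82 ± 0.13), were higher in TRβ1. For PCK1 the 2 pools differed by 0.66 ± 0.19, with a 95% interval from 0.26 to 1.05, and did not pass (adjusted p = 0.19). The count of 124 was 9 without the block, 10 to 18 without a replicate number, 36 to 68 with any 1 of the 6 receptor arrays left out, and 521 with array weights, which included all 124. TRα1 exceeded TRβ1 in size for 226 of the 294 higher features and 113 of the 187 lower ones, and clone number, receptor amount and isoform cannot be told apart behind this.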

How the data were processed

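Total RNA (200 ng per sample) was hybridised to 18 single-colour arrays. The deposited values are log2 expression after RMA, which per the submitters' processing notes was run in R 2.7.1, and were used as the authors left them. RMA values understate changes of dim features, and the number of arrays limits the precision.

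Differences were fitted in limma 3.58.1 (R 4.3.3) on all 18 arrays, with 6 groups of 3 and the replicate number as a block, which left 10 residual degrees of freedom. P-values were adjusted by Benjamini and Hochberg over 20546 features with a gene symbol, at a threshold of 0.05. Another 11775 features carry no symbol and entered no comparison of the main fit. The replicate numbers mark independent biological repeats, and same-numbered T3 arrays of different groups correlated at 0.322 to 0.770 in their deviations from the group means (9 pairs). Those of other numbers correlated at -0.633 to 0.446 (18 pairs), an overlapping range. The fit was tested on data simulated from the same block model with independent noise. Such data cannot show whether the block suits the real arrays.

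Named genes were the 15 largest called differences each way (single-gene features, called in the mean of both pools and of 1 sign in all 6 pairs), up to 4 members per list with called ones first, up to 6 each way between the receptor pools and in the T3 minus vehicle test, and THRA and THRB. The members and the lists were chosen with earlier results of these data known. Alternatives changed the block, weights, centring, features, prior and arrays.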

Additional observations from a re-analysis of the deposited data

Results flagged for a closer look

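The difference between receptor and control pools was not the same on T3 as on vehicle for 6 features, by a test of that difference in limma. The T3 value exceeded the vehicle value by 1.44 for CYP24A1, 1.19 for PTAFR, 1.13 for ENG, 0.97 for KCNJ10, 0.96 for FYN and 0.77 for ZNF717 on the log2 scale.

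The receptor pools differed from each other on T3 for 124 features, of which 31 were among the named genes. TRβ1 was lower than TRα1 by a log2 difference of -1.53 for CLDN6, -1.31 for CDCA7L, -1.21 for both NUPR1 and SLC2A2, -1.20 for FYN, -1.13 for CHN1, -1.10 for ENPP2 and -1.02 for ETNPPL. Smaller negative values were found for THRA (-0.95), C1S (-0.92), VCAN (-0.86), ENG (-0.82), SULT1C2 (-0.61), PTAFR (-0.59), KCNJ10 (-0.56), TIMP3 (-0.55), APCDD1 (-0.50), WNT11 (-0.49), HMOX1 (-0.43) and the receptor kinase AXL (-0.39). TRβ1 was higher for MATN3 (1.13), ATP10A (1.09), SGK1 (1.05), PAQR9 (1.02), SCN1A (0.87), SPART (0.82), DOCK9 (0.81), TTR (0.68), BAAT (0.55), APOM (0.54) and SLC7A11 (0.47). For every gene of this paragraph the mean over both pools therefore averaged unequal values and does not stand for each pool. This holds also where that mean was called, as for ETNPPL, C1S, SGK1, TTR, PAQR9, DOCK9, APOM, SLC7A11, TIMP3 and CLDN6.

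A separate fit of all 32321 features, with p-values adjusted over all of them, called 345 for both pools on T3, against 481 in the main fit. Of the 11775 features without a gene symbol, which no comparison above used, 40 (0.34%) were among these, 14 higher and 26 lower. In that fit 12 of the 40 also passed on vehicle.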

How the results depend on the processing

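The direction of the 98 named genes called on T3 was kept under every alternative run, while their calls and the counts moved. That direction was partly fixed beforehand, so its being kept is no separate test of it. Dropping the block, making it random or changing the prior left the estimates unchanged. The genes had also been chosen by their calls on these same arrays, and those named by size by having 1 sign in all pairs. Of 4023 values of all 202 named genes, 3455 stayed on their side of the threshold, 520 lost a call, 48 gained one and 0 reversed. The 520 losses all fell on the 98 called genes. A change of sign was counted as staying where the gene was called in neither fit, and uncalled SLC2A2 ranged from -0.09 to 0.11. The arrays were paired by replicate number. Without the replicate block the counts were 64 for receptor pools against control on T3, 89 for TRα1, 32 for TRβ1, 9 for TRβ1 against TRα1, 45 on vehicle and 0 for T3 minus vehicle, and 29 of the 98 genes kept their call. With the number as a random block (correlation 0.466) 306, 114 and 82 features were called for both pools, TRβ1 and TRβ1 against TRα1. With array weights (0.412 to 3.64) TRβ1 against TRα1 gave 521. All features of the table gave 109 for TRβ1 and 63 for TRβ1 against TRα1. A trended and robust prior gave 735 for both pools and 295 for TRβ1. Fits of only the arrays of 1 treatment, with fewer samples, gave 208, 288, 56 and 26 on T3 in the order above and 135 on vehicle. With single arrays or replicate numbers left out the counts ranged from 68 to 541, 93 to 580, 25 to 203, 10 to 68, 42 to 316 and 0 to 8. Among the 98 genes, 51 kept their call with each single T3 array left out, 70 lost it without at least 1 replicate number, and 21 kept it in every setting. The cause was not tested beyond the smaller number of samples. With the dimmest 25% of features left out, 578 features were called for both pools on T3, over fewer features tested.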
